A study of Mus musculus with 419 samples.

Results

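Matrix metalloproteinases and the tissue inhibitors that block them were followed across a multi-organ transcriptome atlas of energy deficiency in mice. The set held 10 genes, taken by symbol from the table of raw read counts: the 6 metalloproteinase genes Mmp2, Mmp3, Mmp9, Mmp14, Mmp15 and Mmp23 and the 4 inhibitor genes Timp1, Timp2, Timp3 and Timp4. These are 10 of the 55487 genes in the table, and all 10 were found.

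Metalloproteinases are zinc enzymes that cut collagens, laminins, proteoglycans and other proteins outside the cell. Most are made as inactive precursors and are switched on by removal of a propeptide. Tissue inhibitors of metalloproteinases bind the active enzymes and block them, so the balance of both families sets how fast the matrix of muscle, tendon, heart, uterus and other organs is turned over.

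The study compared mice in energy deficiency (Deficient) with energy-sufficient mice (Control), as a model of relative energy deficiency in sport, a syndrome of athletes who eat too little for the energy they spend. All mice were of the inbred strain CBA/CaJ, with no transgene or deletion named in the labels, and the feeding or exercise schedule and the age of the animals are not given in the sources used here. Tissues were taken at zeitgeber time 17 (ZT17), in the dark phase under the usual convention, or at zeitgeber time 5 (ZT05), in the light phase. The 419 libraries of bulk poly(A)+ RNA covered 19 tissues (18 in females, 17 in males, 16 in both sexes), with 3 libraries for each tissue, sex, treatment and time except 2 in Control males at ZT05 in the tibialis anterior tendon.

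A library's total count ran between 5777450 and 53598697 reads on genes, and all levels are given as CPM, a gene's reads scaled to a common library size. The 12 females each gave all 18 tissues, so calls in different tissues of females come from the same animals. By their animal numbers, 31 to 62 and 73 to 94, males fell into 2 sets of 12 animals, called the first and second cohort here. The sample titles name no cohort. Each male gave between 8 and 10 tissues in the first cohort and between 6 and 10 in the second. In 58 libraries, all of males of the first cohort, over 50% of counts fell on mitochondrially encoded or rRNA-like genes, the male liver and male brown adipose tissue among them. Of 76 marker genes for the 19 tissues, 48 were highest in the tissue they mark and 63 ranked among its top 3. The libraries labelled ovary held little RNA of genes that define the ovary: the median of Amh, made by granulosa cells, was 0.209 CPM, that of Zp3, an egg coat gene, 0.943 CPM, that of Foxl2 3.59 CPM and that of Inha 7.79 CPM. They are called the libraries labelled ovary. Libraries labelled gastrocnemius tendon held skeletal muscle marker genes at muscle levels, with a median sum of 116664 CPM in Deficient females and 123563 CPM in Control females. By the median of Myh4, a fast muscle myosin, the gastrocnemius ranked 6 and the quadriceps 7 of the 19 tissues. Tissues outside the limb muscles thus ranked above both. The sums of the other tendons are not given here, and the part of muscle RNA in the levels and calls of the 3 tendons was not tested.

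The members lie on 9 chromosomes of the mouse genome (build GRCm38), with only Mmp2 (chr8:92827291-92853420) and Mmp15 (chr8:95352268-95375080) on the same one. Timp1 (chrX:20870166-20874735), Timp3 (chr10:86300372-86349506) and Timp4 (chr6:115241892-115252205) each lie within a synapsin gene on the opposite strand, Syn1, Syn3 and Syn2. Exons of Timp3 share 1733 bases with Syn3, or 21.3% of the exon length of Timp3, exons of Timp4 share 90 bases with Syn2, and those of Timp1 share none with Syn1. Whether reads were counted by strand is not given in the sources used here, so reads of Timp3 and Timp4 cannot be told apart from those of their antisense partners over these bases.

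The 300 bases around the start of transcription (250 before, 50 after; RefSeq, GRCm38.p6) are printed for 4 members whose levels moved in opposite directions in female muscle: Mmp3 and Timp1, which were lower in Deficient mice, and Timp3 and Timp4, which were higher. They are Mmp3 at chr9:7445572-7445871 on the plus strand, Timp1 at chrX:20869916-20870215 on the plus strand, Timp3 at chr10:86300162-86300461 on the plus strand and Timp4 at chr6:115252156-115252455 on the minus strand. Capitals mark an AP-1 motif in Mmp3 and GC boxes in Timp1 and Timp3.
Mmp3: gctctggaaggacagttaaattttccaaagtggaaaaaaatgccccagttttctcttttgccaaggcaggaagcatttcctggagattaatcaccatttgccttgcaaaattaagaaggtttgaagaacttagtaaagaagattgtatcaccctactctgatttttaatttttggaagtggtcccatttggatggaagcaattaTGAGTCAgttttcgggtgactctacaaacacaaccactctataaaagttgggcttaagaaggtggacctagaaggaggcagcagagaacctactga
Timp1: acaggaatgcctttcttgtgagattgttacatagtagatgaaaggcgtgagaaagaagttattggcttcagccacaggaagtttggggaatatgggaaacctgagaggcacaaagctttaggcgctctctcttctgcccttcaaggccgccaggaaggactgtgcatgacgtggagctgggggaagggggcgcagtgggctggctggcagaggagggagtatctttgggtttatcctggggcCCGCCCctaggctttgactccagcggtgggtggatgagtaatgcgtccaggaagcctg
Timp3: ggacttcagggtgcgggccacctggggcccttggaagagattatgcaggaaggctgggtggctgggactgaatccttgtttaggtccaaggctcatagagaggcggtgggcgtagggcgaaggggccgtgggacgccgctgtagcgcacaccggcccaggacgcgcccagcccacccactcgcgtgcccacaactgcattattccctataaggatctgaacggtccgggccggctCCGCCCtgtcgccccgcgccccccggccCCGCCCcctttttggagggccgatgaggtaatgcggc
Timp4: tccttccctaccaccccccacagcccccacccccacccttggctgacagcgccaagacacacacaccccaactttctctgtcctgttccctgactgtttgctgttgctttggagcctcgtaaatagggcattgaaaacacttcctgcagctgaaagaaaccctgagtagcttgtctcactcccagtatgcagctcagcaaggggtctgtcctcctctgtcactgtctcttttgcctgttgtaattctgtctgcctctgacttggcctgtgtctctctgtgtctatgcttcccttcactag
Letters for 5 motifs were searched on both strands. The AP-1 motif (TGANTCA) was in 1 of 9 windows of 8 members, against 7.81% of all 32851 promoter windows; it was the one in Mmp3, at position -46 from the start. GC boxes (GGGCGG) were in 6 of the 9 windows, among them those of Timp1 and Timp3, against 35.7% of all windows. The E-box (CACGTG), the glucocorticoid receptor motif (ACANNNTGT) and the FOXO motif (GTAAACA), held by 7.15%, 6.85% and 3.65% of all windows, were in none of the 9. No AP-1 motif and no GC box was found in the window of Timp4.

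Levels over tissues were first described in Control mice, in females except for the testis, with 6 libraries a tissue. The gelatinase Mmp2, which cuts denatured collagen and basement membrane collagen, averaged 332 ± 331 CPM in the tibialis anterior tendon, 314 ± 135 CPM in the uterus and 238 ± 93.5 CPM in the extensor digitorum longus tendon (SD, n = 6 each). It was lowest in the liver, at 0.892 ± 0.291 CPM. The tendon values were spread over 90.4 to 931 CPM, so the top 3 ranks of Mmp2 did not differ beyond their spread. Mmp9, the other gelatinase and a product of neutrophils and macrophages, was highest in the uterus (15.9 ± 7.48 CPM), lung (9.78 ± 4.71 CPM) and spleen (9.51 ± 3.17 CPM), whose ranges overlapped, and lowest in the gastrocnemius tendon (0.141 ± 0.0470 CPM).

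Mmp3, stromelysin-1, was highest in the uterus at 34.0 ± 35.3 CPM (range 2.19 to 98.7 CPM) and had no read in any Control testis library. Among the membrane-bound members, Mmp14, which activates the precursor of Mmp2 at the cell surface, averaged 556 ± 213 CPM in the uterus, 177 ± 29.8 CPM in the libraries labelled ovary and 55.3 ± 7.23 CPM in the adrenal gland. These 3 ranges did not overlap. Mmp15, a second membrane-type enzyme, was highest in the lung at 142 ± 17.5 CPM, clear of the heart at 78.7 ± 6.95 CPM. Mmp23, a membrane-anchored enzyme described mainly from reproductive tissues, averaged 108 ± 37.1 CPM in the uterus and 66.0 ± 15.7 CPM in the libraries labelled ovary, which overlapped, and the libraries labelled ovary lay clear of the spleen at 14.7 ± 2.14 CPM.

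The inhibitors divided the organs differently. Timp3, the inhibitor that is bound to the matrix, averaged 2448 ± 285 CPM in the kidney and 2029 ± 801 CPM in the lung, both clear of the adrenal gland at 787 ± 139 CPM. Timp2, which also takes part in the activation of Mmp2, averaged 632 ± 37.1 CPM in the lung and 603 ± 280.1 CPM in the extensor digitorum longus tendon. Timp1, an inducible soluble inhibitor, had its highest mean in the libraries labelled ovary, 133 ± 237 CPM, which rested on a range of 5.92 to 600.3 CPM. Timp4, the inhibitor known for its abundance in heart and muscle, averaged 220.4 ± 112 CPM in the libraries labelled ovary, 59.1 ± 32.3 CPM in brown adipose tissue and 58.2 ± 38.2 CPM in the tibialis anterior. The liver had the lowest mean of all 4 inhibitors, between 0.0228 CPM for Timp4 and 22.8 CPM for Timp3. Over all members, 19 of 180 pairs of neighbouring ranks had ranges that did not overlap. Counted per kilobase of exon, so that members can be set side by side, Timp2 was the most abundant member in 12 of 19 tissues and Timp3 in 4, with 301 CPM per kb for Timp3 in the kidney against 20.2 CPM per kb for Timp2.

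**Figure D1:**
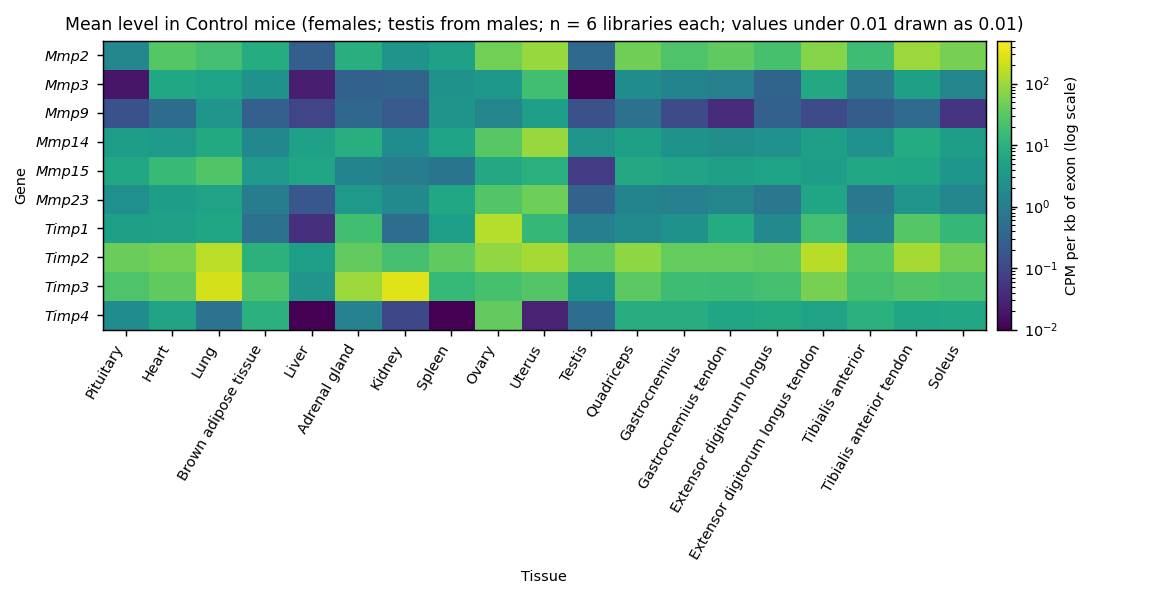
Mean level of each member (rows) in Control mice over the 19 tissues (columns), as CPM per kb of exon on a log colour scale, in females except for the testis (6 libraries a tissue). Timp3 is highest in the kidney, at 301 CPM per kb, where Timp2 has 20.2 CPM per kb.

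As a description of likeness, mean log2 levels in Control mice were correlated over the 19 tissues with those of 15478 other genes. Here, unlike the levels above, Control libraries of both sexes were averaged where both were sampled. Tissues share animals and library preparation, and no test was made. In Control males, mitochondrial or rRNA-like genes took 85.4% to 95.3% of counts in the liver and 73.4% to 94.4% in brown adipose tissue. In the heart of Control males they took 70.9% to 77.6%. Mmp14 averaged 1.82 CPM in the liver of Control males and 29.6 CPM in that of Control females. The part of this share in the correlations was not tested. Mmp2 was most like Aspn (Pearson r = 0.976), Fndc1 and Fbln2, and Timp2 most like Mxra8 (r = 0.974), all genes of the extracellular matrix or its receptors. Mmp14 was most like Snai2 (r = 0.948), Mmp23 most like Tnfrsf11a (r = 0.945), Timp3 most like Chchd2 (r = 0.924), Timp1 most like Fkbp10 (r = 0.914), a collagen chaperone, and Timp4 most like Plin4 (r = 0.859), a lipid droplet gene. The closest genes were C5ar1 for Mmp3 (r = 0.877), Phf11d for Mmp9 (r = 0.862) and Nfib for Mmp15 (r = 0.857). Between members the highest value was that of Mmp14 with Mmp23 (r = 0.867).

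Energy deficiency was tested in each tissue and sex with edgeR's quasi-likelihood test on all genes, as Deficient minus Control averaged over both times, and a gene was called at a Benjamini-Hochberg adjusted p under 0.05. In females 169 of 180 pairs of a member and a tissue had enough reads to be tested. Of these, 30 pairs were lower in Deficient mice, where 7.42% of all gene and tissue pairs were, and 19 were higher, where 6.79% of all pairs were. In males 144 of 170 pairs were tested, and 10 were lower, against 2.45% of all pairs, and 6 were higher, against 2.3%. The proteases were mostly lower (21 pairs lower and 4 higher in females, 7 and 3 in males). The inhibitors split by gene: 6 calls of Timp1 in females were all lower, and of the calls of Timp3 and Timp4 in females 15 were higher and 1 was lower. In bulk tissue, fewer cells of a type and less RNA per cell cannot be told apart.

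**Figure D2:**
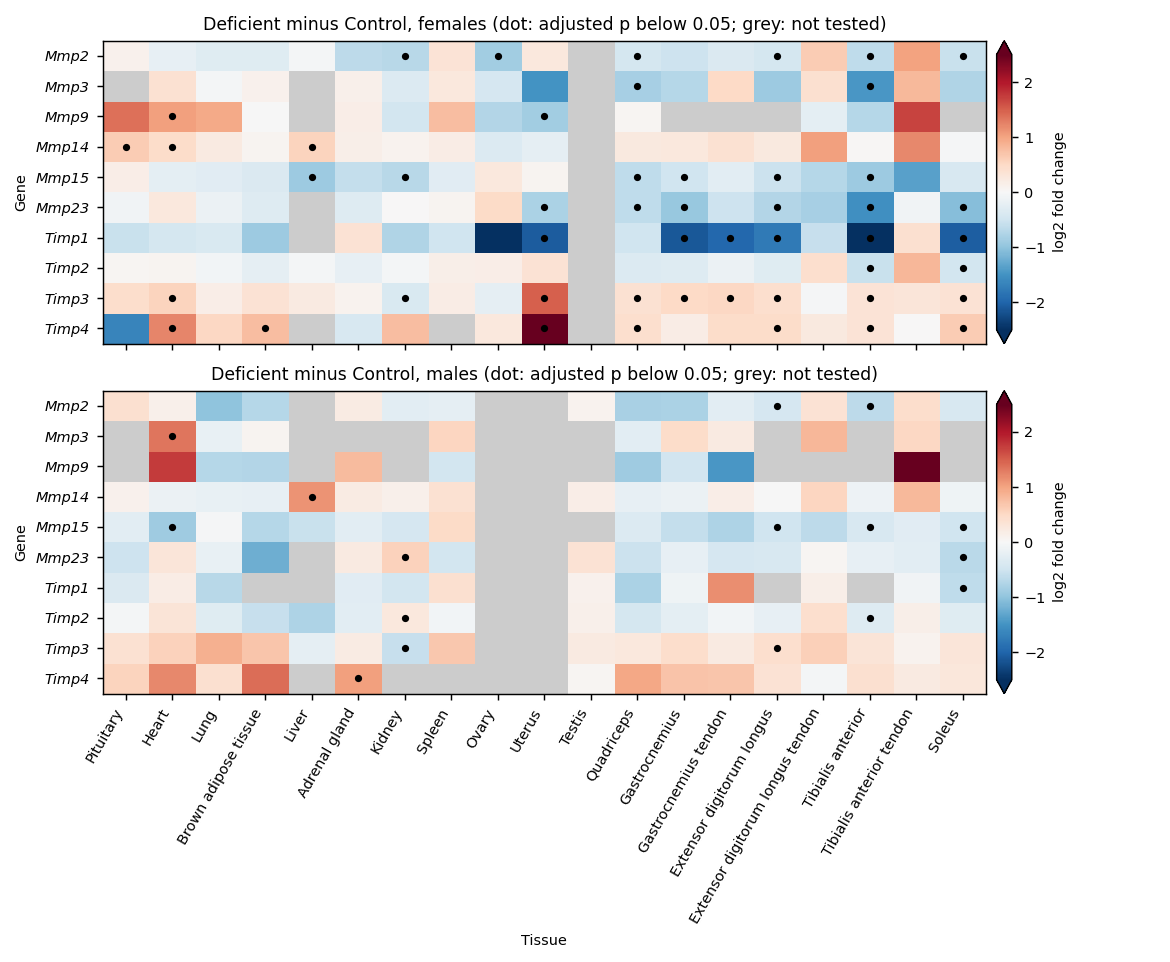
Log2 change of each member (Deficient minus Control, both times averaged) in each tissue, females and males, in colour, with a dot on pairs called at an adjusted p under 0.05 and pairs not tested in grey. In females, the limb muscles hold 30 of the 49 calls: Timp3 and Timp4 higher, and Mmp2, Mmp15, Mmp23 and Timp1 lower.

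The limb muscles of females (extensor digitorum longus, gastrocnemius, quadriceps, soleus and tibialis anterior) held 30 of the 49 calls, 21 lower and 9 higher, of 47 pairs tested. Calls over all genes in these muscles were common too: 16.8% of genes were lower and 16.1% higher in the tibialis anterior, 15.4% and 15% in the extensor digitorum longus, 10.1% and 8.99% in the quadriceps, 8.53% and 7.47% in the soleus, and 5.62% and 4.43% in the gastrocnemius. The members' median log2 change lay between -0.68 in the tibialis anterior and -0.40 in the quadriceps, beside medians of all genes between -0.01 and 0.00.

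Mmp23 was lower in all 5 of these muscles, Mmp2 and Mmp15 in 4 of the 5 each, and Mmp3 in 2. In the tibialis anterior, a shin muscle, Mmp2 had 30.4, 38.0 and 46.5 CPM in Deficient females and 50.0, 58.2 and 71.5 CPM in Control females (lowest, median and highest of 6 each). Every Deficient library lay below every Control library, and the log2 change was -0.64 (SE 0.07, edgeR adjusted p = 5.8e-05). Mmp23 there had 0.167, 0.610 and 0.982 CPM in Deficient females and 1.31, 1.79 and 2.15 CPM in Control females, a log2 change of -1.53 (SE 0.24, edgeR adjusted p = 0.00052), with no overlap.

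Mmp15 had 11.9, 17.5 and 30.2 CPM in the Deficient tibialis anterior and 31.5, 35.0 and 39.1 CPM in the Control muscle, again apart, and fell by 0.91 on the log2 scale (SE 0.16, edgeR adjusted p = 0.0012). Mmp3 was a minor transcript, at 0.266, 0.472 and 0.566 CPM in Deficient females and 0.722, 1.27 and 2.06 CPM in Control females, and was lower by a log2 change of -1.46 (SE 0.22, edgeR adjusted p = 0.00044). Mmp3 also fell in the quadriceps, a thigh muscle, where Deficient females had 1.63, 1.83 and 2.18 CPM and Control females 2.66, 3.36 and 4.42 CPM. Those groups did not overlap, and the log2 change was -0.83 (SE 0.14, edgeR adjusted p = 0.0019). Fitted together with the male libraries the call was lost (edgeR adjusted p = 0.61).

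In the soleus, a slow postural muscle, Mmp2 had 102, 120.5 and 147 CPM in Deficient females and 159, 175 and 207 CPM in Control females, which did not overlap (log2 change -0.56, SE 0.11, edgeR adjusted p = 0.006). Mmp23 had 0.933, 1.58 and 2.41 CPM in the Deficient soleus and 2.53, 3.41 and 4.53 CPM in the Control soleus, also apart (log2 change -1.06, SE 0.20, edgeR adjusted p = 0.0049). By time Mmp23 changed there by -1.54 at ZT05 (edgeR adjusted p = 0.0071) and by -0.57 at ZT17 (adjusted p = 0.27). The other calls of Mmp2, Mmp15 and Mmp23 in these muscles had log2 changes between -0.96 and -0.44, with overlapping groups. The exceptions without a call were Mmp2 in the gastrocnemius (log2 change -0.51, adjusted p = 0.056) and Mmp15 in the soleus (log2 change -0.40, adjusted p = 0.225). Mmp14, an activator of the Mmp2 precursor, passed the test in none of the 5 muscles, with log2 changes between -0.02 and 0.26. For Mmp9, 2 muscles had enough reads, neither of them called.

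Timp1 was lower in 4 of the 5 muscles and had the largest changes of the 10 members there. In the soleus it had 1.05, 3.24 and 3.52 CPM in Deficient females and 7.92, 11.1 and 19.0 CPM in Control females. All 6 Deficient libraries lay below the lowest Control library, with a log2 change of -2.06 (SE 0.25, edgeR adjusted p = 0.0004). In the tibialis anterior, levels were 0.0707, 0.124 and 0.222 CPM in Deficient females, which are 2 to 4 reads a library, and 0.361, 0.669 and 2.93 CPM in Control females, which are 8 to 64 reads (log2 change -2.66, SE 0.49, edgeR adjusted p = 0.0013).

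Timp1 had 0.214, 0.417 and 0.666 CPM in the Deficient extensor digitorum longus and 0.845, 1.24 and 2.60 CPM in the Control muscle, without overlap (log2 change -1.77, SE 0.30, edgeR adjusted p = 0.00095). In the gastrocnemius, a calf muscle, Timp1 had 0.169, 0.485 and 0.945 CPM in Deficient females and 0.879, 1.52 and 3.99 CPM in Control females, which overlapped by the ends of their ranges (log2 change -2.12, SE 0.44, edgeR adjusted p = 0.012). This call was lost in a fit with the male libraries (edgeR adjusted p = 0.11). The quadriceps gave no call (log2 change -0.50, adjusted p = 0.49). Timp2 was lower in the tibialis anterior, with 55.3, 80.9 and 91.2 CPM in Deficient females and 104, 112 and 125 CPM in Control females (log2 change -0.57, SE 0.09, edgeR adjusted p = 0.00042). It was lower in the soleus too, with 106, 137 and 154 CPM in Deficient females and 159, 176 and 233 CPM in Control females (log2 change -0.45, SE 0.09, edgeR adjusted p = 0.008). In both muscles the groups did not overlap.

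Timp3 was higher in Deficient females in all 5 muscles and Timp4 in 4, with overlapping groups throughout. Taken by time, Timp3 changed by 0.53 to 0.73 at ZT05, called in 4 of the 5 muscles, and by -0.01 to 0.40 at ZT17, called in none. The log2 changes of Timp3 lay between 0.34 and 0.49, and in the extensor digitorum longus it had 186, 234 and 257 CPM in Deficient females and 139, 166 and 202 CPM in Control females (log2 change 0.43, SE 0.07, edgeR adjusted p = 0.0011). The called changes of Timp4 lay between 0.33 in the tibialis anterior and 0.64 in the soleus, where it had 29.7, 51.4 and 72.6 CPM in Deficient females and 11.1, 33.3 and 78.1 CPM in Control females. The Control libraries of Timp4 in the soleus spread more widely than the Deficient ones, and they split by time of day. Of the 30 calls in these muscles 20 held when any 1 library was left out; the 10 others, among them Timp3 in the soleus and Mmp23 in the quadriceps, reached adjusted p values of up to 0.114 by edgeR without 1 library. In one fit with the male libraries every call in the quadriceps was lost, with adjusted p values between 0.21 and 0.71. The common dispersion, edgeR's measure of the spread between libraries of a group, was 0.0284 in the female and 0.207 in the male quadriceps, each fitted alone. Its part in the loss was not tested.

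**Figure D3:**
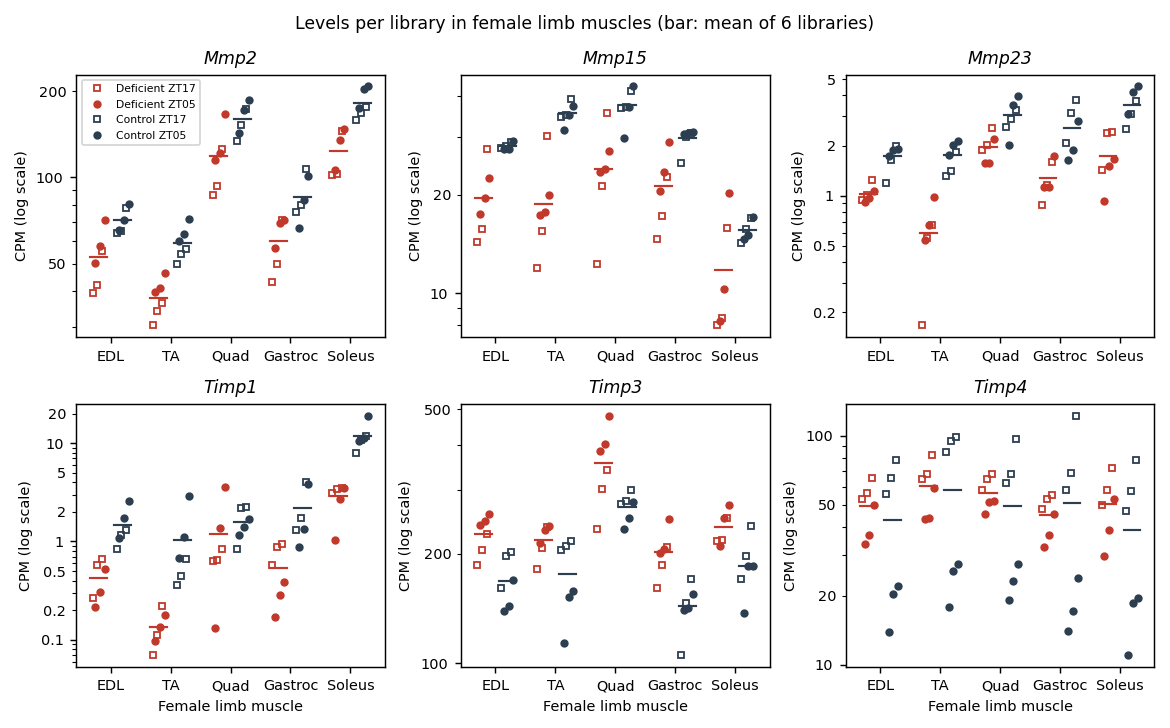
CPM (log axis) of 6 members in the 5 limb muscles of females, one point a library (open squares ZT17, filled circles ZT05), Deficient left of Control in each pair, with the mean of 6 as a bar. The 2 groups are apart for Timp1 in the soleus (Deficient 1.05 to 3.52 CPM, Control 7.92 to 19.0 CPM) and for Mmp2 in the tibialis anterior (Deficient 30.4 to 46.5 CPM, Control 50.0 to 71.5 CPM).

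Other genes of the pathway were counted in these 5 muscles of females, with no test of the lists. Of the matrix substrates 48 of 55 pairs tested were lower and none higher, with medians between -1.21 and -0.92. Col1a1, a chain of type I collagen, averaged 13.6 ± 5.64 CPM in the Deficient tibialis anterior and 86.1 ± 48.0 CPM in the Control muscle (SD, n = 6 each), a log2 change of -2.54 (edgeR adjusted p = 4.8e-05). Of the ADAM and ADAMTS proteases, relatives that shed membrane proteins or cut proteoglycans, 31 of 62 pairs were lower and none higher, and Adamts9 changed by -1.03 on the log2 scale in the tibialis anterior. Of the activators and other regulators 25 of 62 pairs were lower and 6 higher. Pcsk6, a proprotein convertase, changed by -0.91 in the tibialis anterior. Of the metalloproteinases outside the set 5 of 33 pairs were lower and 3 higher, those higher all being Mmp11, with changes between 0.52 and 0.71.

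Markers of other cell types moved with these results. Fibroblast markers were lower in 39 of 50 pairs and higher in none, tendon markers lower in 27 of 40 and higher in none, and macrophage and monocyte markers lower in 33 of 57 and higher in none. In the tibialis anterior all 10 fibroblast markers were lower, with summed levels of 1034 to 1718 CPM in Deficient females and 1837 to 2206 CPM in Control females. There 7 of 8 tendon markers were lower, with sums of 30.9 to 51.5 CPM in Deficient females and 91.7 to 227 CPM in Control females. In the soleus 7 of 8 tendon markers were lower, with sums of 402 to 586 CPM in Deficient females and 917 to 1255 CPM in Control females. Neutrophil markers were higher in 6 of 15 pairs and lower in none, and endothelial markers were lower in 7 of 50 and higher in 4. Adipocyte markers were lower in 6 of 39 pairs and higher in 1, with medians between -1.43 and 0.54 over the muscles. In the tibialis anterior Lep changed by -2.66, Plin1 by -1.89 and Cfd by -1.56. The 1 higher was Lipe in the extensor digitorum longus, which changed by 0.51. The part of these cell types in the members' changes was not tested.

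In males the limb muscles held 9 calls, 8 lower and 1 higher, of 42 pairs tested. Over all genes, 6.13% were lower and 5.38% higher in the extensor digitorum longus, and 3.89% and 4.45% in the tibialis anterior. In the soleus the shares were 6.43% and 5.48%. The male quadriceps had 0 calls over 13974 genes, and the male gastrocnemius had 0.0408% lower and 0.0272% higher. No member was called in either of these muscles, of 10 tested in each. Their common dispersion was 0.207 and 0.264, against 0.0148 to 0.0199 in the other 3 male muscles. Mitochondrial or rRNA-like genes took 9.73% to 62.9% of counts in the Control quadriceps and 14.9% to 87.9% in the Control gastrocnemius of males. The lack of calls there thus does not show a lack of change, and the part of this spread was not tested. Mmp2 in the tibialis anterior had 11.1, 14.5 and 16.7 CPM in Deficient males and 16.5, 22.4 and 31.6 CPM in Control males, which touched at their ends (log2 change -0.66, SE 0.15, edgeR adjusted p = 0.019), a call lost without any one of 3 libraries. In the extensor digitorum longus Mmp2 had 25.1, 30.9 and 38.4 CPM in Deficient males and 32.8, 42.5 and 50.9 CPM in Control males (log2 change -0.41, SE 0.10, edgeR adjusted p = 0.018). Mmp15 was lower in 3 male muscles. In the tibialis anterior its call (log2 change -0.41) was lost without any one of 8 libraries and, with an adjusted p of 0.075 by edgeR, in one fit for both sexes, as it was in the soleus (log2 change -0.49, adjusted p = 0.082 in that fit). In the extensor digitorum longus it had 18.5, 25.3 and 27.1 CPM in Deficient males and 26.3, 35.8 and 41.8 CPM in Control males (log2 change -0.50, SE 0.10, edgeR adjusted p = 0.008).

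The soleus of males also had lower Timp1 and Mmp23. Timp1 had 2.03, 4.51 and 5.09 CPM in Deficient males and 5.16, 6.51 and 7.38 CPM in Control males, just apart (log2 change -0.63, SE 0.18, edgeR adjusted p = 0.039). Mmp23 had 1.46, 2.26 and 3.39 CPM in Deficient males and 2.88, 3.70 and 4.44 CPM in Control males (log2 change -0.67, SE 0.18, edgeR adjusted p = 0.032). Both calls were lost when any one of 8 of the 12 libraries was left out, and that of Timp1 also in one fit for both sexes (edgeR adjusted p = 0.079). Timp2 in the tibialis anterior had 36.1, 44.8 and 54.3 CPM in Deficient males and 50.1, 55.3 and 68.4 CPM in Control males (log2 change -0.33, SE 0.09, edgeR adjusted p = 0.046), a call lost without any one of 9 libraries.

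The 1 higher call was Timp3 in the extensor digitorum longus, with 111, 166 and 219.6 CPM in Deficient males and 101, 119 and 133 CPM in Control males (log2 change 0.42, SE 0.07, edgeR adjusted p = 0.0035). By time its change was 0.70 at ZT05 (adjusted p = 0.0025) and 0.15 at ZT17 (adjusted p = 0.49). Matrix substrates were lower in 23 of 55 pairs in male muscles and higher in none, ADAM and ADAMTS proteases in 10 of 60, and fibroblast and tendon markers in 12 of 50 and 12 of 39. The part of these markers in the changes in males was not tested.

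The difference between the sexes was tested in one fit of both sexes in each of the 16 shared tissues, and none of 150 pairs of a member and a tissue was called, where 1.15% of all gene and tissue pairs were. At an unadjusted p under 0.05 there were 22, and DESeq2 called 3, limma-voom 10 and edgeR without a filter on low counts 6. The shares over all genes that go with these counts are not given here. The counts are therefore not read as a result about the members. The smallest unadjusted p belonged to Timp1 in the soleus, which changed by -2.06 in females and -0.63 in males (difference -1.39, SE 0.32, edgeR adjusted p = 0.11). In tissues whose males all came from the second cohort, sex and cohort cannot be told apart; there are 7 of them, the soleus included.

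The uterus was the organ with the widest separation of inhibitors. Over all genes there, 23.8% were lower and 21.2% higher in Deficient mice. Timp3 had 575, 611 and 793 CPM in the Deficient uterus and 142, 203 and 349 CPM in the Control uterus. The lowest Deficient library lay above the highest Control library, and the log2 change was 1.5 (SE 0.23, edgeR adjusted p = 0.00049). Timp1 went the other way, with 1.98, 2.72 and 4.96 CPM in the Deficient uterus and 9.07, 11.6 and 16.4 CPM in the Control uterus, also apart (log2 change -2.08, SE 0.23, edgeR adjusted p = 0.00025).

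Mmp23 in the uterus had 49.4, 56.4 and 79.4 CPM in Deficient mice and 65.1, 101 and 161 CPM in Control mice, with overlap (log2 change -0.80, SE 0.16, edgeR adjusted p = 0.0023). Mmp9 had 4.59, 7.88 and 17.4 CPM in Deficient mice and 5.21, 17.3 and 26.8 CPM in Control mice; these groups overlapped widely, and the call (log2 change -0.88, SE 0.33, edgeR adjusted p = 0.049) was lost without any one of 10 of the 12 libraries, with RLE scaling and with a filter at 5 CPM. By time Mmp9 changed by -1.64 at ZT05 (edgeR adjusted p = 0.034) and by -0.12 at ZT17 (adjusted p = 0.86). Timp4 was scarce, at 0.118 to 1.58 CPM in Deficient mice and 0 to 0.569 CPM in Control mice (log2 change 2.55, edgeR adjusted p = 0.02), in a tissue where its antisense neighbour Syn2 averaged 5.87 CPM. Of the other metalloproteinases, Mmp7, matrilysin, averaged 6.42 ± 10.2 CPM in Deficient and 61.0 ± 45.7 CPM in Control uterus (SD, n = 6 each), a log2 change of -4.14 (edgeR adjusted p = 0.0011). Plau, the urokinase that activates plasminogen, changed by -1.69, and Mmp16, a membrane-type enzyme, by 1.14.

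Markers of several cell types moved with these values. Neutrophil markers were lower in 6 of 7 tested of 11 in the list, with summed levels of 30.2 to 1352 CPM in the Deficient uterus and 2378 to 14901 CPM in the Control uterus. Most of these sums was Ltf, lactoferrin, which averaged 325 ± 499 CPM in the Deficient and 7464 ± 4352 CPM in the Control uterus (SD, n = 6 each) and is also a product of the uterine epithelium under oestrogen, so the sums do not measure neutrophils alone. Retnlg, another gene of the list, averaged 1.18 ± 1.06 CPM in the Deficient and 33.6 ± 16.5 CPM in the Control uterus. Macrophage and monocyte markers were lower in 10 of 12, with sums of 317 to 648 CPM in the Deficient uterus and 883 to 1388 CPM in the Control uterus. Endothelial markers were higher in 9 of 10, with sums of 445 to 786 CPM in the Deficient uterus and 284 to 492 CPM in the Control uterus. Of the smooth muscle and pericyte markers 3 of 8 were lower (Des -1.15, Cnn1 -1.01 and Tagln -0.98 on the log2 scale) and 1 higher, with sums of 5682 to 8332 CPM in the Deficient uterus and 6432 to 14400.2 CPM in the Control uterus. Fibroblast markers were lower in 3 of 10 and higher in 2, and of 8 adipocyte markers Pparg (-1.68) and Lipe (-0.63) were lower. The part of these cell types in the changes of Mmp9, Mmp23, Timp1 and Timp3 was not tested.

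In the heart of females 4 members were higher and none lower, beside 7.5% of genes higher and 8.06% lower. Timp4 had 55.5, 63.0 and 83.8 CPM in Deficient females and 13.9, 31.6 and 59.5 CPM in Control females (log2 change 1.22, SE 0.13, edgeR adjusted p = 0.00019), with a small overlap. Timp3 had 309.5, 409 and 596 CPM in Deficient females and 186, 294 and 401 CPM in Control females (log2 change 0.55, SE 0.12, edgeR adjusted p = 0.01). Both inhibitors had their lowest values in Control libraries. By time Timp3 changed by 1.05 at ZT05 (edgeR adjusted p = 0.0047) and by 0.05 at ZT17 (adjusted p = 0.91), and its averaged call was lost in one fit for both sexes (adjusted p = 0.092). Timp4 changed by 2.09 at ZT05 and by 0.34 at ZT17. Mmp14 was higher as well (log2 change 0.45, SE 0.12, edgeR adjusted p = 0.025), a call lost without any one of 6 libraries. Mmp9 had 1.12, 3.41 and 5.40 CPM in Deficient females and 1.23, 1.57 and 2.04 CPM in Control females, a call (log2 change 1.03, SE 0.32, edgeR adjusted p = 0.045) lost without any one of 10 libraries. Neutrophil markers, of which 2 of 5 tested were higher, summed to 7.09 to 36.4 CPM in Deficient and 5.38 to 13.6 CPM in Control hearts of females. Fibroblast markers were lower in 6 of 10, among them Lum (log2 change -0.95) and Col6a3 (-0.77), with sums of 3142 to 4719.6 CPM in Deficient and 3594 to 4383 CPM in Control hearts. Macrophage and monocyte markers were lower in 2 of 12 (Cd68 -0.62, Mrc1 -0.43), with sums of 336 to 568.1 CPM in Deficient and 501 to 618 CPM in Control hearts, and Acta1, a skeletal muscle actin, changed by -1.37. The part of these in the members' changes was not tested.

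The heart of males gave other calls, beside 0.19% of genes higher and 0.19% lower. Mmp3 had 11.5, 21.4 and 36.3 CPM in Deficient males and 3.54, 7.55 and 17.2 CPM in Control males (log2 change 1.3, SE 0.19, edgeR adjusted p = 0.01), with overlap between the highest Control and the lowest Deficient libraries. Mmp15 had 6.99, 9.19 and 10.6 CPM in Deficient males and 10.2, 17.2 and 23.1 CPM in Control males (log2 change -0.89, SE 0.16, edgeR adjusted p = 0.029), a call lost without any one of 8 libraries. Timp4 had 13.9, 25.4 and 32.6 CPM in Deficient males and 4.64, 11.1 and 14.6 CPM in Control males, which was not called (log2 change 1.2, SE 0.25, edgeR adjusted p = 0.062). Mitochondrial or rRNA-like genes took 61.7% to 75.0% of counts in Deficient and 70.9% to 77.6% in Control hearts of males. Neutrophil markers, of which none of 5 tested was called, summed to 18.5 to 442 CPM in Deficient and 9.12 to 48.7 CPM in Control hearts of males. The part of either in these changes was not tested.

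**Figure D4:**
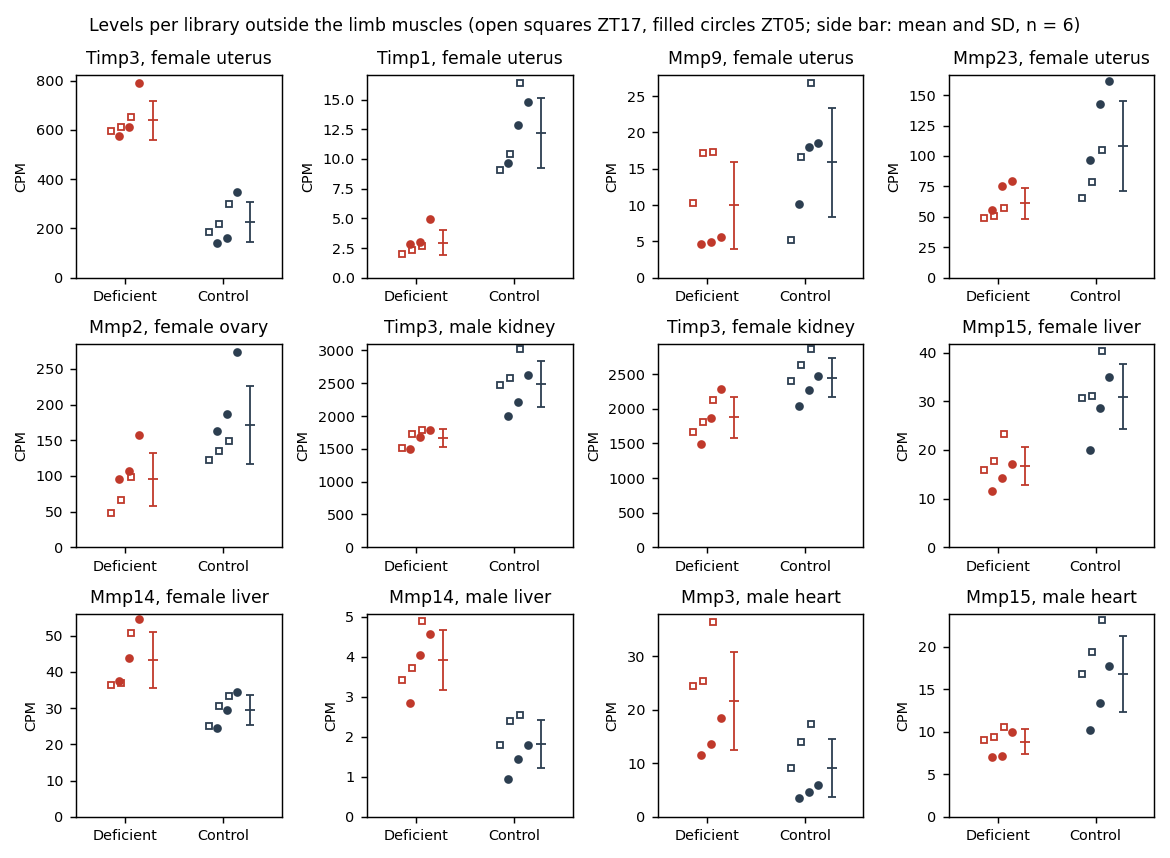
CPM by library in organs outside the limb muscles, Deficient left of Control, one point a library (open squares ZT17, filled circles ZT05), with the mean and SD of 6 at the side. In the uterus Timp3 lies at 575 to 793 CPM in Deficient and 142 to 349 CPM in Control mice, and in the male kidney at 1492 to 1789 CPM in Deficient and 2004 to 3020.4 CPM in Control mice.

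The kidney, where Timp3 was most abundant, was the one tissue in which Timp3 was lower, and it was lower in both sexes. Deficient males had 1492, 1703 and 1789 CPM and Control males 2004, 2526 and 3020.4 CPM, which did not overlap (log2 change -0.58, SE 0.10, edgeR adjusted p = 0.001). Deficient females had 1498, 1843 and 2282 CPM and Control females 2044, 2439.6 and 2867 CPM, which overlapped (log2 change -0.38, SE 0.11, edgeR adjusted p = 0.041), a call lost without any one of 8 libraries. Its antisense neighbour Syn3 averaged 9.31 CPM in the male kidney. Over all genes, 18.7% were lower and 19.3% higher in the male kidney, and 5.89% and 6.23% in the female kidney.

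In the female kidney Mmp2 had 3.31, 5.70 and 6.81 CPM in Deficient mice and 5.51, 9.13 and 12 CPM in Control mice (log2 change -0.70, SE 0.15, edgeR adjusted p = 0.012), and Mmp15 was lower as well (log2 change -0.70), a call lost without any one of 5 libraries (adjusted p up to 0.068). In the male kidney Mmp23 had 3.39, 3.82 and 5.95 CPM in Deficient mice and 2.46, 2.67 and 3.46 CPM in Control mice (log2 change 0.57, SE 0.16, edgeR adjusted p = 0.013). Timp2 had 43.4, 47.3 and 66.8 CPM in Deficient and 37.3, 43.5 and 46.2 CPM in Control male kidneys, a call (log2 change 0.27, edgeR adjusted p = 0.0498) lost without any one of 11 libraries, and with DESeq2, limma-voom and RLE scaling.

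Both membrane-type enzymes moved in the liver of females, in opposite directions. Mmp14 had 36.4, 40.7 and 54.6 CPM in Deficient mice and 24.5, 30.1 and 34.5 CPM in Control mice, without overlap (log2 change 0.55, SE 0.13, edgeR adjusted p = 0.012). Mmp15 had 11.5, 16.5 and 23.2 CPM in Deficient mice and 20, 30.9 and 40.3 CPM in Control mice, with overlap (log2 change -0.90, SE 0.15, edgeR adjusted p = 0.0016). Mmp14 was also higher in the liver of males, at 2.85, 3.88 and 4.88 CPM in Deficient mice and 0.951, 1.79 and 2.55 CPM in Control mice (log2 change 1.12, SE 0.27, edgeR adjusted p = 0.017), without overlap, and the call was lost without any one of 3 libraries. In these libraries 79.2% to 94.4% of counts in Deficient and 85.4% to 95.3% in Control males fell on mitochondrial or rRNA-like genes, whose part in the result was not tested. In the pituitary of females Mmp14 had 33.0, 39.1 and 44.7 CPM in Deficient mice and 19.6, 26.0 and 32.6 CPM in Control mice, without overlap (log2 change 0.63, SE 0.08, edgeR adjusted p = 0.011). By time Mmp14 changed there by 0.28 at ZT05 (edgeR adjusted p = 0.43) and by 0.98 at ZT17 (adjusted p = 0.018). Over all genes, 7.43% were lower and 6.52% higher in the female liver, and 2.47% and 1.83% in the male liver. In the female pituitary 1.99% of genes were lower and 1.99% higher.

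A few calls stood alone in their tissue. In the libraries labelled ovary Mmp2 had 48.6, 97.0 and 157 CPM in Deficient mice and 122, 156 and 274 CPM in Control mice (log2 change -0.86, SE 0.20, edgeR adjusted p = 0.028), a call lost without any one of 8 libraries. There 5 of 10 fibroblast markers were lower, and their part was not tested. In the brown adipose tissue of females Timp4 had 60.4, 86.9 and 122 CPM in Deficient mice and 29.3, 52.7 and 97.8 CPM in Control mice (log2 change 0.77, SE 0.15, edgeR adjusted p = 0.01). Its change was 1.57 at ZT05 and -0.04 at ZT17, and the averaged call was lost in one fit for both sexes (edgeR adjusted p = 0.23). In the adrenal gland of males Timp4 had 5.76, 9.03 and 12 CPM in Deficient mice and 3.10, 3.56 and 7.22 CPM in Control mice, where Syn2 averaged 31.3 CPM. That call (log2 change 1.02, SE 0.24, edgeR adjusted p = 0.048) was lost without any one of 10 libraries. The libraries labelled gastrocnemius tendon of females had lower Timp1, at 0.996, 1.89 and 2.08 CPM in Deficient mice and 3.95, 6.37 and 11.5 CPM in Control mice, without overlap (log2 change -1.95, SE 0.23, edgeR adjusted p = 0.00059), and higher Timp3 (log2 change 0.52). The call of Timp3 was lost without any one of 7 libraries (adjusted p up to 0.075), and in one fit for both sexes the calls of Timp1 (edgeR adjusted p = 0.12) and Timp3 (0.25) were both lost. Over all genes, 5.78% were lower and 4.64% higher in the libraries labelled ovary, and 3.56% and 4.51% in female brown adipose tissue. The shares were 0.973% and 1.004% in the male adrenal gland, and 7.99% and 9.88% in the female libraries labelled gastrocnemius tendon. No member was called in either sex in the lung, spleen, extensor digitorum longus tendon or tibialis anterior tendon, nor in the testis.

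The time of day was compared within each treatment, as ZT17 minus ZT05. In Control mice 14 pairs were higher at ZT17, where 1.6% of all gene and tissue pairs were, and 4 were lower, where 1.57% were. In Deficient mice 2 were higher, against 0.737% of all pairs, and 2 lower, against 0.714%. Of the 18 calls in Control mice 17 were in females: Timp4 in 8 tissues and Timp3 in 5 were higher at ZT17, and Mmp14 in 4 was lower. Over all genes too, such calls were more frequent in females in most shared tissues. In the tibialis anterior 536 genes were higher and 497 lower of 14675 in females, and 101 and 52 of 13680 in males. In the heart the counts were 402 and 359 of 15193, and 1 and 7 of 13707. The pituitary, adrenal gland and tibialis anterior tendon had more in males.

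In Control females Timp4 had the largest called differences between times. In the tibialis anterior of Deficient females it had 64.5, 68.0 and 82.5 CPM at ZT17 and 43.2, 43.8 and 59.1 CPM at ZT05 (log2 difference 0.56, SE 0.16, edgeR adjusted p = 0.064). In Control females the same muscle had 84.7, 94.5 and 98.6 CPM at ZT17 and 17.9, 25.6 and 27.6 CPM at ZT05 (log2 difference 1.96, SE 0.16, edgeR adjusted p = 4.2e-05). The 3 Deficient libraries at ZT05 thus lay above all 3 Control libraries at ZT05, and those at ZT17 below all 3 Control libraries at ZT17.

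The same order of Control values was seen in the other muscles. In the gastrocnemius Timp4 had 48.0, 52.9 and 54.9 CPM at ZT17 and 32.6, 36.8 and 45.4 CPM at ZT05 in Deficient females. Levels in Control females were 58.1, 68.8 and 122 CPM at ZT17 and 14, 17.1 and 23.9 CPM at ZT05. Over the 5 muscles the log2 difference in Control females lay between 1.69 and 2.18, all called, and that in Deficient females between 0.36 and 0.57, none called. Taken by time, the change with deficiency in Timp4 was between 1.04 and 1.29 at ZT05, called in 4 of 5 muscles, and between -0.68 and -0.02 at ZT17, called in none.

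In the heart of females Timp4 had 57.3, 60.9 and 65.1 CPM at ZT17 and 55.5, 81.9 and 83.8 CPM at ZT05 in Deficient mice. In Control mice the values were 41.3, 43.8 and 59.5 CPM at ZT17 and 13.9, 16.2 and 21.8 CPM at ZT05. In brown adipose tissue of females it had 69.9, 84.3 and 103 CPM at ZT17 and 60.4, 89.5 and 122 CPM at ZT05 in Deficient mice. Levels in Control mice were 73.9, 91.3 and 97.8 CPM at ZT17 and 29.3, 30.8 and 31.4 CPM at ZT05. In both organs the ZT05 libraries of Control mice stood below all other libraries.

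**Figure D5:**
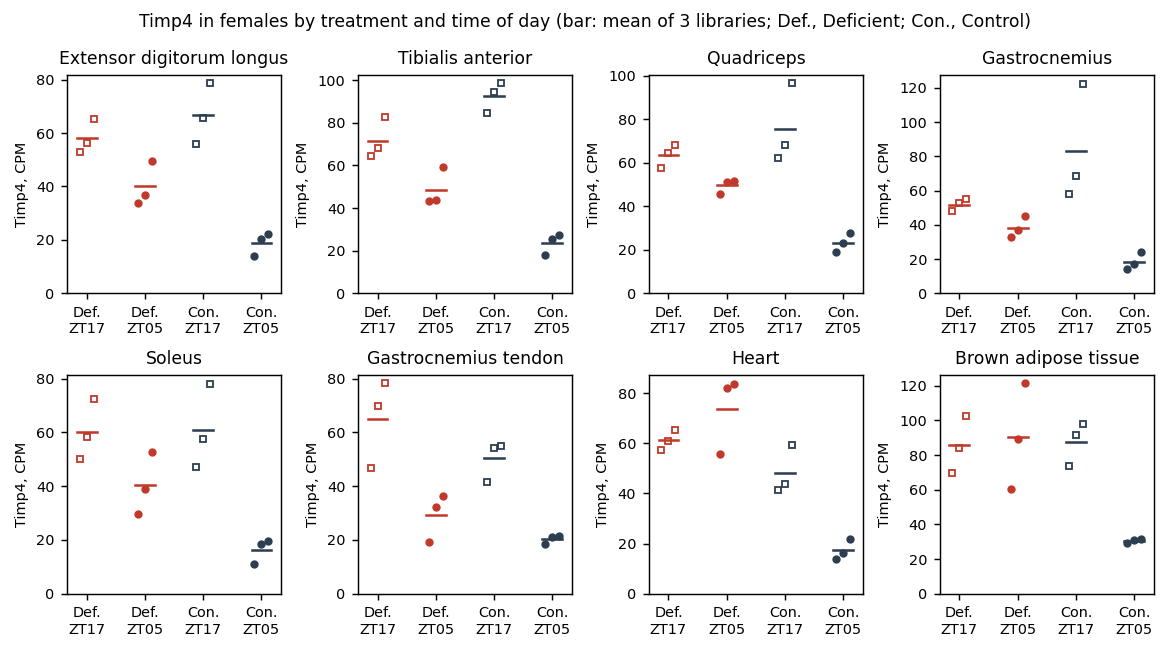
Timp4 in CPM at ZT17 and ZT05 in 8 tissues of females, Deficient left of Control, one point a library (3 a group) with the mean as a bar. In Control tibialis anterior the libraries lie at 84.7 to 98.6 CPM at ZT17 and 17.9 to 27.6 CPM at ZT05, and in Deficient tibialis anterior at 64.5 to 82.5 CPM and 43.2 to 59.1 CPM.

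Whether the change with deficiency differs between times was tested by the interaction, the change at ZT17 minus that at ZT05. It was called in 8 pairs, all negative, where 0.406% of all gene and tissue pairs were called negative and 0.284% positive. These shares differed widely between tissues. In the brown adipose tissue of males 921 of 11094 genes were called negative and 478 positive. In the liver of females 534 of 13793 genes were called negative and 545 positive. The counts in other tissues of females were 50 and 23 of 15193 in the heart, and 94 and 136 of 14355 in brown adipose tissue. In the tibialis anterior of females they were 35 and 22 of 14675. For Timp4 the interaction was -1.75 in the heart (SE 0.26, edgeR adjusted p = 0.019), -1.61 in brown adipose tissue (SE 0.30, edgeR adjusted p = 0.021) and -1.40 in the tibialis anterior (SE 0.22, edgeR adjusted p = 0.034), all in females. The call in the heart was lost without Control ZT05 replicate 1 (edgeR adjusted p = 0.051), that in brown adipose tissue without any one of 3 libraries (up to 0.064) and that in the tibialis anterior without any one of 5 (up to 0.095). In one fit for both sexes the calls in the heart (edgeR adjusted p = 0.155) and brown adipose tissue (0.48) were lost. In the other 4 muscles of females it was between -1.74 and -1.29 without a call, with adjusted p between 0.06 and 0.26. In males the interaction of Timp4 lay between -1.53 and -0.55 in the 5 muscles, none called.

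Timp3 showed the same sign in females. In brown adipose tissue it had 177, 182 and 266 CPM at ZT17 and 201, 275 and 287 CPM at ZT05 in Deficient mice. In Control mice the values were 235, 301 and 304 CPM at ZT17 and 100.3, 117 and 129 CPM at ZT05 (interaction -1.56, SE 0.26, edgeR adjusted p = 0.015). In the liver it had 18.3, 24.2 and 27.0 CPM at ZT17 and 28.7, 29.8 and 29.8 CPM at ZT05 in Deficient mice. Levels in Control mice were 24.7, 25.1 and 32.3 CPM at ZT17 and 17, 17.2 and 20.5 CPM at ZT05 (interaction -0.93, SE 0.21, edgeR adjusted p = 0.024). The call in brown adipose tissue was lost without Control ZT17 replicate 2 (edgeR adjusted p = 0.053) and that in the liver without either of 2 libraries (up to 0.058). Both were lost in one fit for both sexes (0.064 in brown adipose tissue and 0.36 in the liver). In the lung Timp3 differed by 1.01 between times in Control females, and its interaction was not called. Mmp14 was lower at ZT17 in the kidney, quadriceps, soleus and extensor digitorum longus of Control females. In the Deficient kidney it had 8.73, 9.22 and 12.2 CPM at ZT17 and 11.3, 11.9 and 15.5 CPM at ZT05. The Control kidney had 6.71, 8.06 and 8.69 CPM at ZT17 and 13.5, 14.2 and 17 CPM at ZT05 (log2 difference in Control -0.93, SE 0.17, edgeR adjusted p = 0.0068).

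The 3 interactions in males were all in brown adipose tissue, for Mmp23 (-6.78, SE 0.85, edgeR adjusted p = 0.00029), Timp2 (-2.70, SE 0.62, edgeR adjusted p = 0.011) and Mmp2 (-2.49, SE 0.67, edgeR adjusted p = 0.025). Mmp23 had 0.300, 0.337 and 0.465 CPM at ZT17 and 1.18, 2.61 and 5.11 CPM at ZT05 in Deficient males. In Control males the values were 5.13, 6.29 and 14.3 CPM at ZT17 and 0.388, 0.494 and 1.17 CPM at ZT05. The Control ZT17 and Deficient ZT05 libraries of Mmp23 lay above the others, with a log2 difference between times of -3.13 in Deficient males (SE 0.62, edgeR adjusted p = 0.025, lost without any one of 5 libraries and, at 0.066, with a term for cohort) and 3.65 in Control males (SE 0.59, edgeR adjusted p = 0.0029). Timp2 had 6.05, 12.3 and 14.7 CPM at ZT17 and 15.3, 27.7 and 41.1 CPM at ZT05 in Deficient males. Levels in Control males were 31.2, 44.8 and 49.0 CPM at ZT17 and 8.63, 17.3 and 23.6 CPM at ZT05.

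The share of counts on mitochondrial or rRNA-like genes followed the same order in these libraries. It was 27.7%, 82.1% and 82.2% at ZT17 and 89.7%, 89.8% and 94.8% at ZT05 in Deficient males, and 94.1%, 94.2% and 94.4% at ZT17 and 73.4%, 78.1% and 83.5% at ZT05 in Control males. As few as 332659 counts fell on other genes, and 1 Deficient ZT17 library came from the second cohort. All 3 interactions also passed edgeR's test with a term for cohort in the fit, and with mitochondrial and rRNA-like genes removed from the counts. Removal of these genes lost no call of treatment or time in any tissue, and the cohort term concerned 1 library here. Neither setting tests the part of the mitochondrial or rRNA-like share. That part, and the part of RNA quality, in these interactions was not tested. In the female libraries labelled gastrocnemius tendon, Deficient mice had 6.05, 6.13 and 8.31 CPM of Mmp3 at ZT17 and 0.747, 0.812 and 1.88 CPM at ZT05, a difference of 2.58 on the log2 scale (SE 0.45, edgeR adjusted p = 0.0084). Control mice had 1.05, 1.44 and 2.99 CPM at ZT17 and 1.30, 2.29 and 2.74 CPM at ZT05. The 3 Deficient ZT17 libraries lay above the other 9, and the call was lost in one fit for both sexes (edgeR adjusted p = 0.36). In the extensor digitorum longus of males Timp3 had 111, 121 and 140.2 CPM at ZT17 and 192, 197 and 219.6 CPM at ZT05 in Deficient mice. In Control mice the values were 101, 111 and 124 CPM at ZT17 and 115, 127 and 133 CPM at ZT05 (log2 difference in Deficient -0.71, SE 0.10, edgeR adjusted p = 0.0048).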

How the data were processed

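The study deposited 1 table of raw read counts per gene (poly(A)+ RNA, stranded mRNA kit, per the labels' protocols), for 55487 genes and 419 libraries. The submitters' processing notes name FastQC 0.11.9, cutadapt 4.1, STAR 2.7.10a, DESeq2 1.34.0 and GRCm38; the counting tool, annotation and strand setting are not given in the sources used here. Totals were 12928374 to 53598697 counts in females and 5777450 to 32441565 in males. The members and gene lists were chosen with earlier results of these data known.

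Each sex of a tissue was fitted alone with edgeR 4.0.16 (R 4.3.3): filterByExpr, TMM scaling, the quasi-likelihood test, 1 coefficient per treatment and time, and Benjamini-Hochberg adjustment over all genes tested there, with calls at an adjusted p under 0.05. The difference between the sexes came from a joint fit. For each member and sex, values are given for the up to 2 called tissues with the largest change and a mean of at least 1 CPM; other pairs named were chosen after their values were seen. Likeness used log2(CPM + 0.5) in Control libraries of both sexes, among genes with at least 1 CPM in at least 5 tissues. Alternatives were DESeq2 1.42.0, limma-voom 3.58.1, RLE scaling, other filters, a replicate block, a cohort term, 1 fit for both sexes, removal of mitochondrial and rRNA-like genes, and leaving out each library. No library was identical to another. Replicates are separate animals by their numbers, and positions and exons come from GENCODE vM21. One gene of the lists is not reported here.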

Additional observations from a re-analysis of the deposited data

Results flagged for a closer look

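In groups of 6 libraries, 3 of 68 groups tested held a library far from the other 5 (a gap to its nearest neighbour above 0.625 of the group's range), and chance gives about 1 in 20 such groups. Timp1 in the tibialis anterior of Control females had 2.93 CPM in ZT05 replicate 3, where the next library had 1.11 CPM. Timp1 in the soleus of Deficient males had 2.03 CPM in ZT05 replicate 2, where the nearest other library had 3.96 CPM. Timp3 in the Deficient uterus had 793 CPM in ZT05 replicate 2, where the nearest had 653 CPM.

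The change with deficiency differed between times of day, by the interaction in edgeR's quasi-likelihood test, in 8 pairs. On the log2 scale, ZT17 minus ZT05, the interaction of Timp4 was -1.75 in the heart, -1.61 in brown adipose tissue and -1.40 in the tibialis anterior of females. That of Timp3 was -1.56 in brown adipose tissue and -0.93 in the liver of females. In brown adipose tissue of males it was -6.78 for Mmp23, -2.70 for Timp2 and -2.49 for Mmp2, in libraries of which all but 1 had over 50% of counts on mitochondrial or rRNA-like genes. There 921 of 11094 genes had a called negative interaction and 478 a called positive one.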

How the results depend on the processing

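Counts of called pairs of members and tissues were recomputed under each alternative, and no call changed direction. As reported, there were 30 lower and 19 higher in females, 10 lower and 6 higher in males, 18 for time in Control mice, 4 for time in Deficient mice, 8 interactions and 0 differences between the sexes. Without a filter on low counts there were 20 higher in males, 36 for time in Control, 24 for time in Deficient, 29 interactions and 6 sex differences. DESeq2 gave 11 higher in males, 38 for time in Control, 18 for time in Deficient, 23 interactions and 3 sex differences. Limma-voom gave 29 higher in females, 16 lower and 12 higher in males, 50 for time in Control, 7 for time in Deficient, 18 interactions and 10 sex differences. At 5 CPM in 3 libraries 3 were higher in males. One fit for both sexes gave 11 higher in females, 10 higher in males and 5 interactions. Why these counts moved was not tested, and the shares over all genes under each alternative are not given here.

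With the replicate number as a block there were 8 for time in Deficient mice, and 29 lower and 15 higher in females. The mean correlation of same-numbered libraries lay between -0.12 and 0.25 over the fits. It was highest in the male gastrocnemius, at 0.25 against -0.12 for other pairs. In every fit the lowest same-numbered pair was at -0.05 or below. Whether the numbers pair libraries is not settled by these values. Chosen after seeing the data, ZT05 alone gave 19 lower in females and 5 lower in males, ZT17 alone 14 lower and 4 higher in females and 4 lower and 1 higher in males, with fewer libraries each, and tissues without a library over 50% mitochondrial or rRNA-like counts gave 5 interactions. Leaving out 1 library gave 22 to 30 lower and 14 to 18 higher in females, 4 to 11 lower and 3 to 6 higher in males, 13 to 20 for time in Control, 3 to 7 for time in Deficient, 5 to 10 interactions and 0 to 2 sex differences. Of the calls with deficiency, 32 of 49 in females and 7 of 16 in males held in every such fit, 29 and 11 held under every other setting, and 26 and 6 under all of these. One fit for both sexes lost 20 of the 59 calls it could test, 12 of them in the quadriceps, gastrocnemius and gastrocnemius tendon of females, and the replicate block lost 11 of 65. In these tissues the common dispersion was 0.0284 to 0.0592 in females and 0.207 to 0.267 in males, and its part was not tested. The settings with RLE scaling, no filter, DESeq2, limma-voom or 5 CPM lost between 1 and 3 each, and removal of mitochondrial and rRNA-like genes lost none. Few reads limit Timp1 in muscle and all members in male liver and brown adipose tissue.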
